A study of Mus musculus with 2 samples.

Results

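Desmosomes are the spot-like junctions that tie the keratin filaments of neighbouring epithelial cells together, and the 10 genes described here encode their parts in the mouse: the desmogleins Dsg1a, Dsg1b, Dsg2 and Dsg3, the desmocollins Dsc1, Dsc2 and Dsc3, and the plaque proteins Dsp, Jup and Pkp1. The genes were selected by name from a table of 49492 genes, and they were chosen after their read counts in this comparison were known. All 10 passed the filter of at least 10 reads summed over both libraries, which 19233 genes of the table passed and which are the genes compared below. Since the contrast that chose them is the contrast described, their differences are given as a description with no test.

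The study asked what macrophages with an M2-like state change in mammary basal cells, the outer cells of the mammary duct that hold myoepithelial and stem cell activity. Primary basal cells of WT genotype, sorted from glands of adult females, formed colonies in a 3D gel over 11 to 14 days, alone (ctrl, 1 library) or sharing the well with M2-like macrophages (M2, 1 library). Per the methods of the study, the macrophages were grown from bone marrow and kept above the gel in a transwell chamber, apart from the basal cells, and the RNA came from whole colonies and organoids. Neither group has a replicate, so none of the differences below has a replicate check, and the 95% intervals cover counting error only.

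Markers of basal cells, the cells named by the label, were detected in both libraries. Of 9 basal markers all were compared, with 1 lower and 0 higher by at least 2-fold in M2 and a median log2 difference of -0.06. The lower marker was Oxtr, with 8324 reads in ctrl against 1920 in M2, a log2 fold difference of -2.18. Mylk (4902 and 2977 reads) stood at -0.79 and Itgb1 (27481 and 45655 reads) at 0.66. The 13 luminal markers were detected too, with 6 lower and 0 higher, and the ratio of reads of the basal keratins Krt5 and Krt14 to those of the luminal keratin genes Krt8 and Krt18 was 3.15 in ctrl against 3.02 in M2. In that ratio Krt5 was higher in M2 (log2 fold difference 0.50) and Krt14 lower (-0.32). By flow cytometry, the study found mostly luminal cells in colonies of both groups, with a larger basal share under M2 co-culture. The read ratio is therefore no measure of cell make-up. In such bulk samples, fewer cells of a type and less RNA per cell cannot be told apart. Of 26912610 reads in ctrl and 29413844 in M2, the 10 desmosome genes took 0.328% and 0.237%.

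In a desmosome, desmogleins and desmocollins, both cadherins, bind those of the next cell. Inside the cell they hold plakoglobin (Jup) and plakophilins (Pkp1 and its relatives), and these hold desmoplakin (Dsp), which grips the keratin filaments. The isoforms mark tissue layers: Dsg2 and Dsc2 are made by nearly all epithelia, simple ones included, Dsg3 and Dsc3 by the lower layers of stratified epithelia and by myoepithelial cells of the mammary gland, and Dsg1 and Dsc1 by the upper, differentiating layers of skin and other stratified epithelia.

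The desmosome genes separated into those of the upper layers, which had few reads in the M2 library, and all others, which differed by less than 2-fold. Differences are log2 ratios of M2 to ctrl, computed on reads plus 1 after scaling the library sizes by TMM (trimmed mean of M values), so that negative values mean fewer reads in M2. Dsg1a, Dsg1b and Dsc1 were lower in M2 by at least 2-fold, and 0 of the 10 genes were higher. Over all 19233 genes compared, 7.82% were lower and 9.53% were higher by that measure. The same 3 genes were lower with the whole counting interval beyond 2-fold, as were 3.53% of all genes, whereas 4.88% of all genes and 0 of the 10 were higher in that way. These percentages are printed as background only, because the members were chosen on this contrast. The median log2 difference, M2 over ctrl, was -0.74 for the 10 genes and -0.0032 for all genes compared.

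**Figure D1:**
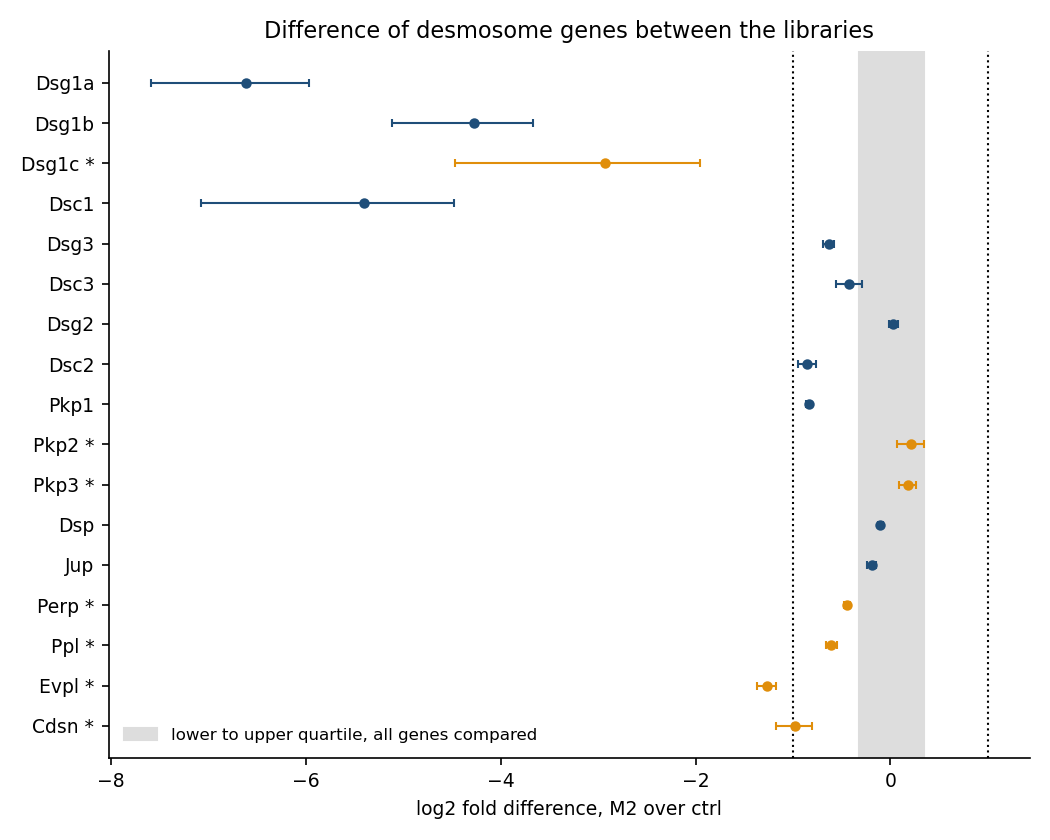
The log2 fold difference between the libraries (M2 over ctrl, x axis) is plotted for the 10 members in blue and for 7 other desmosome genes in orange with an asterisk; bars are 95% counting intervals, dotted lines mark 2-fold, and the grey band runs from the lower to the upper quartile of all genes compared (-0.32 to 0.35). Dsg1a, Dsg1b, Dsg1c and Dsc1 sit far left of the 2-fold line, and Evpl is the other gene whose whole interval lies beyond it.

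Among the upper-layer cadherins, Dsg1a (chromosome 18, 20310811 to 20343350, plus strand, GRCm38) encodes a copy of desmoglein 1, the cadherin of upper epidermal layers that pemphigus foliaceus antibodies attack. It had 1405 reads in ctrl against 14 in M2, a log2 fold difference of -6.62 (95% counting interval -7.59 to -5.97), which is 98.3-fold lower. Ordered from the lowest value, it held rank 8 of the 19233 genes compared. Dsg1b (20376729 to 20410196, plus strand), the neighbouring copy, had 349 reads in ctrl against 18 in M2, a log2 fold difference of -4.27 (-5.12 to -3.66) at rank 70. Dsc1 (20084703 to 20114773, minus strand), the desmocollin of the same layers, had 281 reads in ctrl against 6 in M2, a log2 fold difference of -5.40 (-7.08 to -4.48) at rank 29. In each of the 3 genes the M2 library was at 18 reads or fewer, and the counting intervals of the levels in the libraries did not overlap.

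Mice carry 3 Dsg1 copies, and their transcripts are alike in sequence, so part of the split between them is uncertain. In GENCODE M21, 35.0% of the 50-base windows of Dsg1a transcripts occurred unchanged in another gene, mainly Dsg1b, and 49.0% of those of Dsg1b occurred elsewhere, mainly in Dsg1a. For Dsg1c, which is not among the 10, the share was 29.6%. How the authors counted reads that fit more than 1 copy is not given in the sources used here. Dsg1c had 57 reads in ctrl against 7 in M2, a log2 fold difference of -2.93 (-4.47 to -1.96), so all 3 copies were lower. With the reads of the copies summed, 1811 in ctrl stood against 39 in M2, and the log2 fold difference was -5.57, a smaller gap than for Dsg1a alone and a larger one than for Dsg1b or Dsg1c alone. Dsc1, Dsc2 and Dsc3 shared 0% of such windows with other genes, and the log2 fold difference of Dsc1 lay between those of Dsg1a and Dsg1b.

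The lower-layer pair differed far less. Dsg3 (20510304 to 20541310, plus strand), the desmoglein of basal keratinocytes and the target in pemphigus vulgaris, had 6387 reads in ctrl against 4317 in M2, a log2 fold difference of -0.63 (-0.69 to -0.58). Dsc3 (19960930 to 20002097, minus strand), its desmocollin counterpart, had 1084 reads in ctrl against 848 in M2, a log2 fold difference of -0.42 (-0.55 to -0.29). Both were lower in M2 and short of 2-fold, and 13.7% and 20.4% of all genes compared had a lower value than Dsg3 and Dsc3. The grouping into upper-layer and lower-layer cadherins was made after the values had been seen.

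The broadly expressed pair did not move together. Dsg2 (20558074 to 20604521, plus strand), the desmoglein common to simple and stratified epithelia, had 6603 reads in ctrl against 7073 in M2, a log2 fold difference of 0.03 (-0.02 to 0.08). Scaled by total reads instead of TMM, its value was -0.03, so no direction is given. Dsc2 (20030633 to 20059554, minus strand), the broadly expressed desmocollin, had 2437 reads in ctrl against 1411 in M2, a log2 fold difference of -0.86 (-0.95 to -0.76). The counting interval of Dsc2 lies wholly below that of Dsg2 and also below those of the lower-layer genes Dsg3 and Dsc3. Of the desmogleins, the broad isoform Dsg2 had a higher log2 fold difference than Dsg3, whereas of the desmocollins the broad isoform Dsc2 had a lower one than Dsc3.

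The 3 plaque genes differed by less than 2-fold between the libraries. Pkp1 (chromosome 1, 135871395 to 135919207, minus strand) encodes plakophilin 1, which strengthens desmosomes in stratified epithelia. It had 29823 reads in ctrl against 17491 in M2, a log2 fold difference of -0.84 (-0.87 to -0.81). Dsp (chromosome 13, 38151328 to 38198577, plus strand), the linker to keratin that every desmosome needs, had 31886 reads in ctrl against 31135 in M2, a log2 fold difference of -0.10 (-0.13 to -0.08). Jup (chromosome 11, 100368958 to 100397763, minus strand), which encodes plakoglobin of both desmosomes and adherens junctions, had 8027 reads in ctrl against 7365 in M2, a log2 fold difference of -0.19 (-0.24 to -0.15). The counting intervals of Dsp and Jup lie within the quartiles of all genes compared, and that of Pkp1 lies below them. Dsp, and Dsg2 above, overlap antisense genes (Gm10129 with 155 and 125 reads, Gm16090 with 223 and 251 reads), and since the use of strand in counting is not given in the sources used here, such reads cannot be told apart.

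Among the 10 genes, a promoter entry was matched for Dsp and Jup in the RefSeq table for GRCm38.p6. Their sequences are shown as the matched entries, and both genes encode plaque proteins required in desmosomes of every type. Each runs 5′ to 3′ from 250 bases before the annotated start to 50 bases after it. That start is the one of the promoter entry and need not be the gene end printed above. Of the GENCODE M21 transcripts of these genes, only Jup-209 and Dsp-201 had their first bases in the windows. Capitals mark matches on either strand to the motifs searched: the GC box GGGCGG, the CACCC box CCACCC and the E2 box CAGGTG.
Jup, chr11:100397741-100398040, minus strand: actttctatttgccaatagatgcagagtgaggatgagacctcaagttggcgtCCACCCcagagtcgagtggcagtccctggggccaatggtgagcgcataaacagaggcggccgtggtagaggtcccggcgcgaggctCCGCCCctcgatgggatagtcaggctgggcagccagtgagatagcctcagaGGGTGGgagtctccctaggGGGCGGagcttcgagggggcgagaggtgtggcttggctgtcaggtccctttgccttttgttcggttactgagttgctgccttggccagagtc
Dsp, chr13:38151044-38151343, plus strand: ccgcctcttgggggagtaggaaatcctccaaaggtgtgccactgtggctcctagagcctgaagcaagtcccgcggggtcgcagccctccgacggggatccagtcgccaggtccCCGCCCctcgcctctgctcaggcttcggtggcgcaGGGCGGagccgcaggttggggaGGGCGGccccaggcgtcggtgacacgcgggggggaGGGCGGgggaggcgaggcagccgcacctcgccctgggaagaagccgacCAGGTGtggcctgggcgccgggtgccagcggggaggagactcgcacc
The Jup window is 60.7% G and C, and held the GC box at 2 places and the CACCC box at 2. The Dsp window is 73% G and C, and held the GC box at 4 places, starting 137, 102, 80 and 45 bases before the start, and the E2 box once, from base 4 after it. Of 32851 promoter windows of this length, 35.7% held the GC box, 31.5% the CACCC box and 20.2% the E2 box. The AP-1 motif TGANTCA (in 7.81% of all windows), the TATA box TATAAA (13.6%) and the Grainyhead motif AACCNGTT (2.09%) had no match in either. A match to these short strings is a description of the letters only.

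Levels can be compared between genes per length, as RPKM (reads per kilobase of gene and per 1000000 reads of scaled library size), with the gene lengths of the deposited table. In ctrl the order of RPKM levels was Pkp1 (216), Dsp (120.6), Dsg3 (56.6), Jup (45.4), Dsg2 (29.1), Dsc2 (16.8), Dsg1a (9.0), Dsc3 (7.44), Dsg1b (3.20) and Dsc1 (2.71). Only the last pair, Dsg1b and Dsc1, had overlapping counting intervals. In M2 the order of RPKM levels was Pkp1 (121), Dsp (112.2), Jup (39.7), Dsg3 (36.5), Dsg2 (29.7), Dsc2 (9.28), Dsc3 (5.55), Dsg1b (0.158), Dsg1a (0.0854) and Dsc1 (0.0552). There the intervals of Dsg1b and Dsg1a overlapped, as did those of Dsg1a and Dsc1. Dsg1a thus stood above Dsc3 in ctrl, whereas in M2 each of the 3 upper-layer genes stood below all 7 others. The length matters for the middle of the order: with the longest GENCODE transcript in place of the deposited length, Jup took the third place and Dsg2 stood above Dsg3 in both libraries.

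**Figure D2:**
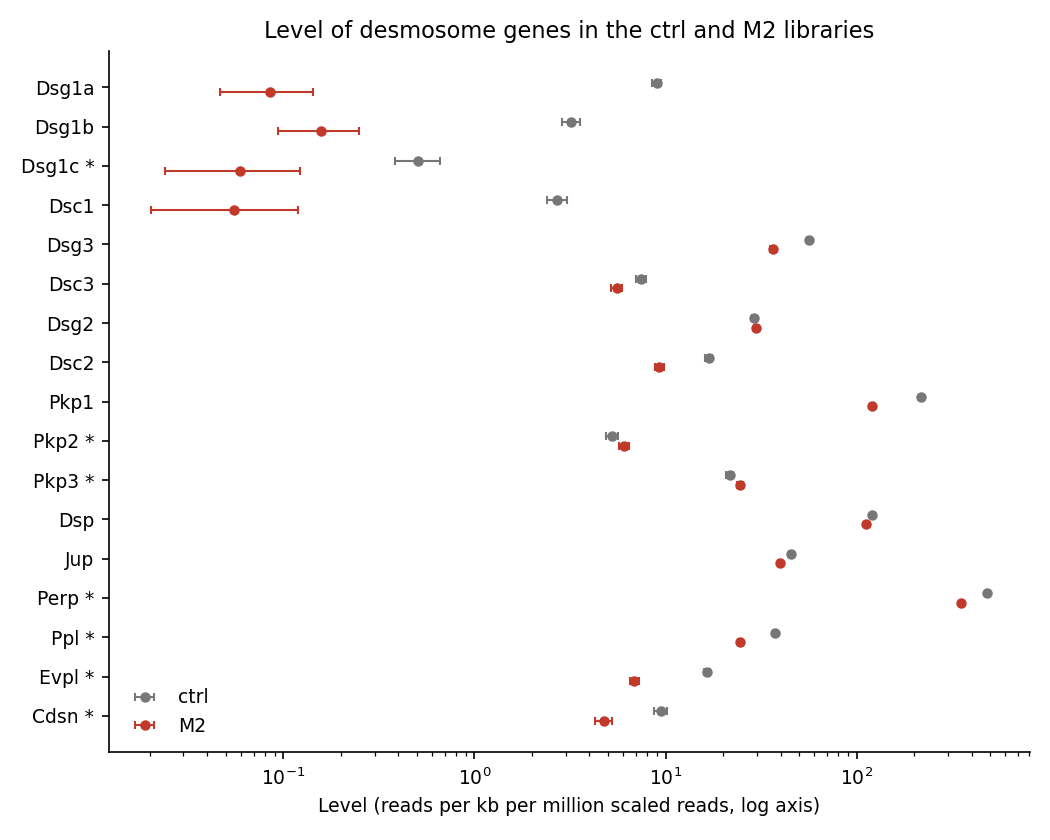
The level per length (RPKM, log axis) of the 10 members and of 7 other desmosome genes (asterisk) is plotted for the ctrl library in grey and the M2 library in red, with 95% counting intervals. The grey and red points of Dsg1a, Dsg1b, Dsg1c and Dsc1 lie far apart, those of Dsg2 nearly coincide, and Pkp1 is the member with the highest level in both libraries.

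The sums by layer use the grouping that was made after the values had been seen, so their intervals describe counting error in a chosen set. Summed by layer, the RPKM level of the upper-layer cadherins Dsg1a, Dsg1b and Dsc1 was 14.9 in ctrl against 0.298 in M2, a log2 difference of -5.64 (-6.11 to -5.17). The lower-layer pair Dsg3 and Dsc3 summed to a level of 64.0 in ctrl and 42.0 in M2, a log2 difference of -0.61 (-0.66 to -0.56). The broad pair Dsg2 and Dsc2 summed to a level of 45.9 in ctrl and 39.0 in M2, a log2 difference of -0.24 (-0.28 to -0.19). Over all 7 cadherins among the members, the summed level was 124.8 in ctrl against 81.3 in M2, a log2 difference of -0.62, and for Dsp, Jup and Pkp1 it was 382.1 and 272.8, a log2 difference of -0.49. The cadherin and plaque totals of the M2 library were therefore lower, though neither reached 2-fold. The plaque total was not lower evenly: the summed reads of Dsp and Jup alone differed by log2 -0.12, and Pkp1 by -0.84. The 6 stratified-epithelium members are Dsg1a, Dsg1b, Dsg3, Dsc1, Dsc3 and Pkp1. Their summed reads differed by log2 -0.86, against -0.16 for those of Dsg2 and Dsc2. Pkp1 gave 29823 of the 39329 reads of that sum in ctrl.

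Within each gene family, the make-up of the message differed between the libraries. Of the RPKM level of all desmogleins, the 3 Dsg1 copies made up 12.9% in ctrl (95% interval 12.4 to 13.5) and 0.455% in M2 (0.331 to 0.624). Dsg2 made up 29.5% in ctrl (28.9 to 30.2) and 44.7% in M2 (43.7 to 45.6), and Dsg3 57.5% and 54.8%. The Dsg2 share depends on the length used: with GENCODE transcript lengths it was 45.4% in ctrl and 63.5% in M2, higher in M2 either way. Of the desmocollin level, Dsc1 made up 10.1% in ctrl and 0.371% in M2, Dsc2 62.4% in both libraries, and Dsc3 27.6% and 37.3%. Of the plakophilin level, Pkp1 made up 88.9% in ctrl and 79.8% in M2. The remainder came from Pkp3, which occurs in most epithelia, with 8.92% and 16.2%, and from Pkp2, the plakophilin of simple epithelia and heart, with 2.16% and 4.01%. A higher share need not mean a higher level. The RPKM level of Dsc3 was lower in M2 (7.44 in ctrl, 5.55 in M2), that of Dsg2 nearly equal (29.1 and 29.7) and that of Pkp3 higher (21.7 and 24.5).

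**Figure D3:**
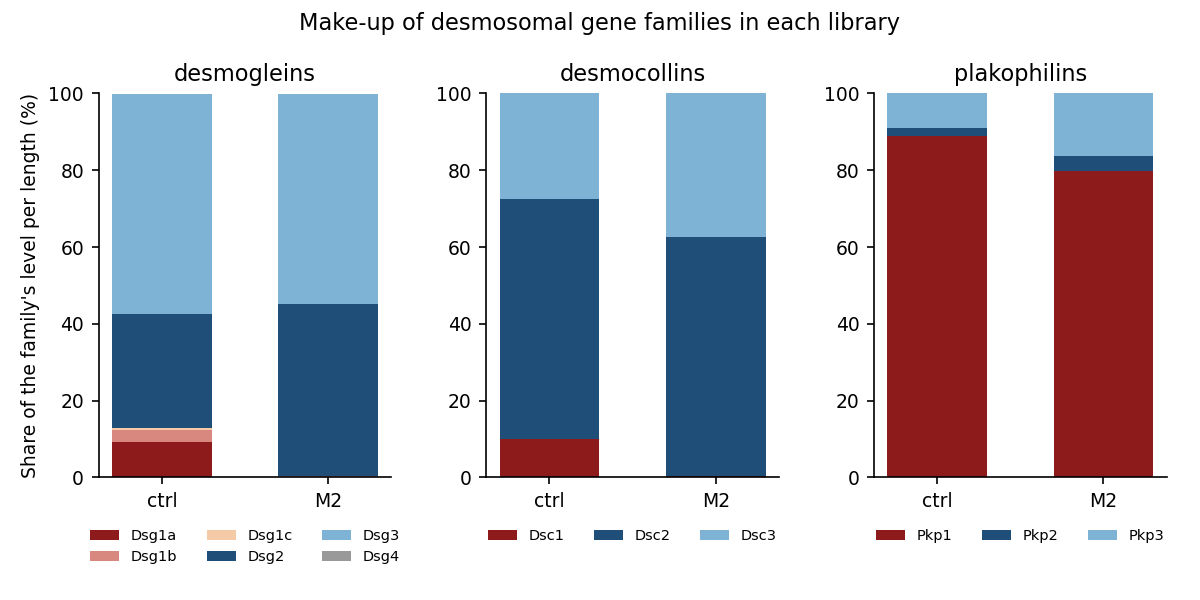
Stacked bars give each gene's share (%) of the summed level per length of the desmogleins, desmocollins and plakophilins in the ctrl and the M2 library. The Dsg1 copies and Dsc1, at 12.9% and 10.1% in ctrl, are too thin to see in M2, and the shares of Dsg2, Dsc3 and Pkp3 are higher in M2. Shares are not levels: the level of Dsc3 was lower in M2 and that of Dsg2 nearly equal.

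All desmosomal cadherin genes of the mouse lie side by side on chromosome 18, which the choice of members did not use. The cluster spans 644 kb and holds 9 desmocollin and desmoglein genes, of which 8 had enough reads, and 0 other genes of the table lie wholly inside it. Dsg4, a desmoglein of hair, had 2 reads in ctrl against 3 in M2 and is given no fold difference. From the left end the order was Dsc3, Dsc2, Dsc1, Dsg1c, Dsg1a, Dsg1b, Dsg4, Dsg3 and Dsg2. The 4 genes at least 2-fold lower in M2, Dsc1, Dsg1c, Dsg1a and Dsg1b, were direct neighbours and spanned 325 kb in the middle of the cluster. The Dsg1 copies among them share sequence, so the 4 values are not separate observations. Dsg1a, Dsg1b and Dsc1 were also chosen with this contrast known. On both sides of them lay cadherin genes that differed by less than 2-fold: Dsc2 and Dsc3 on the left and, beyond Dsg4, Dsg3 and Dsg2 on the right. Outside the cluster, the nearest compared gene on the left was Cdh2, for N-cadherin, which lay 3152 kb away and is not an adjacent flank. Its log2 fold difference was 0.30 (1567 and 2022 reads). On the right, 80.1 kb away, the galactosyltransferase gene B4galt6 stood at 0.13 (930 and 1068 reads). Gm16090, which overlaps the end of Dsg2 on the other strand, had 223 and 251 reads, a log2 fold difference of 0.10, and the next gene, Gm10269, had 131 and 146 reads, a log2 fold difference of 0.09.

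**Figure D4:**
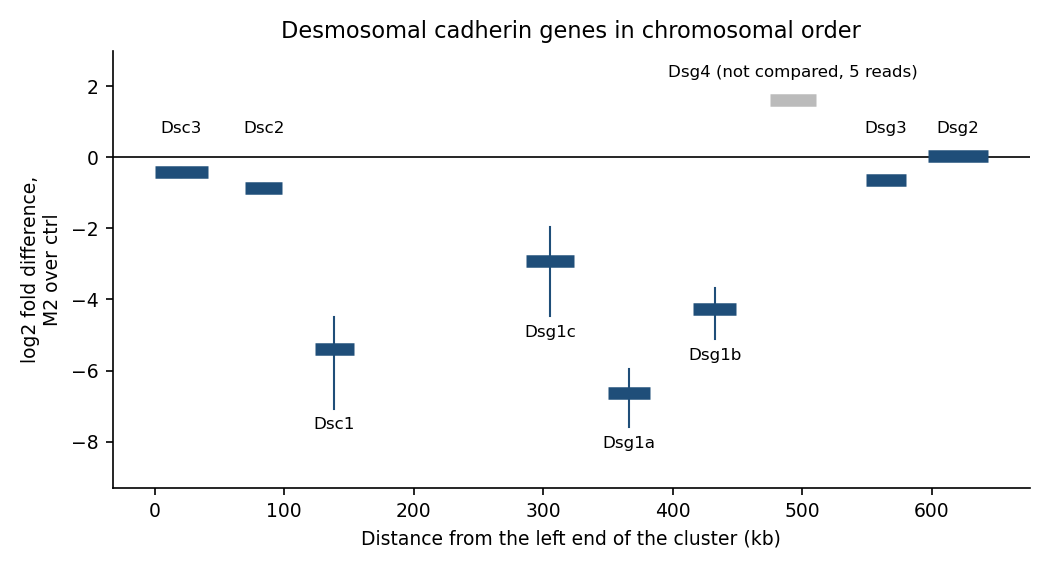
Each bar is a desmosomal cadherin gene, placed by its distance in kb from the left end of the cluster (x axis) and by its log2 fold difference, M2 over ctrl (y axis), with its 95% counting interval as a vertical line. Dsc1, Dsg1c, Dsg1a and Dsg1b form a run of 4 neighbouring genes between -2.93 and -6.62, and Dsg4, in grey above the axis, has 5 reads in all and no fold difference. The Dsg1 copies share sequence, so their values are not separate.

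Other desmosome genes, from a list of 8 chosen with earlier results of these data known, showed a like mixture. Among them, Dsg1c shares sequence with members, so its value is not separate from theirs. Of the 7 with enough reads, 2 were lower by at least 2-fold, 0 were higher, and the median log2 difference was -0.61. Besides Dsg1c, the lower gene was Evpl, for envoplakin, a plakin of the cornified envelope, with 2896 reads in ctrl against 1261 in M2, a log2 fold difference of -1.27 (-1.37 to -1.17). Its partner periplakin (Ppl) had 6439 and 4439 reads, a log2 fold difference of -0.61. Cdsn, for corneodesmosin of the outermost skin layer, had 693 and 367 reads, a log2 fold difference of -0.98, and it passed 2-fold at -1.04 when libraries were scaled by total reads. Perp, a membrane protein of desmosomes under p63 control, had 25766 and 19837 reads, a log2 fold difference of -0.45. The other plakophilins were slightly higher in M2: Pkp2 had 773 and 938 reads, a log2 fold difference of 0.21, and Pkp3 had 2152 and 2550 reads, a log2 fold difference of 0.18.

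Adherens junctions and hemidesmosomes are the other junctions that hold such cells to their neighbours and to the basement membrane. Of 13 adherens junction genes compared, 0 were lower and 0 higher by at least 2-fold, with a median log2 difference of 0.05, where 7.82% and 9.53% of all genes were lower and higher. The 4 largest among them were in Nectin4 (-0.78, 4538 and 2777 reads), Nectin3 (0.49, 271 and 400 reads), Nectin1 (-0.45, 1727 and 1328 reads) and Cdh3 (-0.44, 4587 and 3539 reads), the P-cadherin gene of basal cells. Of 6 hemidesmosome genes, which fasten keratins to the basement membrane, 0 were lower and 0 higher, with a median log2 difference of 0.23. The α6β4 integrin genes Itga6 (10489 and 14992 reads) and Itgb4 (5238 and 7514 reads) each had a log2 fold difference of 0.45. Col17a1, for the hemidesmosomal collagen, stood at 0.38 (16722 and 22797 reads) and Dst, which holds a form that links keratin to the integrin, at -0.41 (15972 and 12620 reads).

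Keratins, to which desmosomes attach, were taken from lists of suprabasal, basal and simple types. Of 8 suprabasal keratins on the list, 6 were compared and 5 were lower by at least 2-fold, with a median log2 difference of -3.46. Krt4 of inner stratified linings had 679 reads in ctrl against 6 in M2, a log2 fold difference of -6.67 (-8.34 to -5.76). The epidermal pair Krt1 (273 and 7 reads) and Krt10 (1228 and 75 reads) stood at log2 fold differences of -5.17 and -4.08, and Krt16 of activated epidermis (9775 and 1433 reads) at -2.84. The other compared members were Krt6a (27168 and 13157 reads), which had the most reads of the list, at -1.12, and Krt6b (910 and 716 reads) at -0.41, so the suprabasal values overlapped those of the other keratins. Of 4 basal-type keratins 1 was lower and 1 higher, with a median log2 difference of 0.09: Krt17 (6051 and 16592 reads) at 1.39, Krt15 (3589 and 1705 reads) at -1.14, Krt5 (56383 and 83619 reads) at 0.50 and Krt14 (81991 and 68968 reads) at -0.32. Of 4 simple keratins 0 were lower and 1 was higher, with a median of 0.08: Krt7 (6227 and 14885 reads) at 1.19, Krt19 (14538 and 8899 reads) at -0.78, Krt8 (29888 and 36348 reads) at 0.21 and Krt18 (14001 and 14225 reads) at -0.05. Close keratin relatives such as Krt14, Krt16 and Krt17 could exchange reads, so the value of each is uncertain. Sharing of sequence windows was not computed for keratins.

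Genes of the cornified envelope, the protein shell of terminally differentiated keratinocytes, also had fewer reads in M2. Of 13 on the list, 10 were compared, 7 were lower, 1 was higher (Sprr1b, with 9 and 22 reads), and the median log2 difference was -1.42. The small proline-rich envelope gene Sprr1a had 445 and 76 reads, a log2 fold difference of -2.60. Cst6 (305 and 87 reads), for the cystatin M/E protease inhibitor, stood at -1.87, Sbsn (3574 and 1706 reads), for suprabasin, at -1.14, and Tgm1 (204 and 170 reads), for the cross-linking transglutaminase, at -0.33. A list of squamous markers shares members with the suprabasal keratin and cornified envelope lists. Of 8 compared, 7 were lower in M2 by at least 2-fold, and 5 with the whole counting interval beyond 2-fold. The reads of the list summed to 205 CPM (reads per 1000000 reads of scaled library size) in ctrl and 70.2 in M2. It was chosen with earlier results of these data known, so it is no separate support. Whether a smaller squamous share of the colonies had a part in the differences of Dsg1a, Dsg1b and Dsc1 was not tested.

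Proteases that can cut desmosomal proteins, with their inhibitor Spink5, went both ways: of 10 compared, 3 were lower and 3 higher by at least 2-fold, with a median log2 difference of 0.33. Spink5, which restrains the kallikreins of skin, had 2130 and 910 reads, a log2 fold difference of -1.30. Klk7 (169 and 57 reads) and Klk5 (31 and 15 reads), the kallikreins that cleave corneodesmosomes, were the other lower genes, at -1.62 and -1.07. Klk8 (65 and 694 reads) stood at 3.33, Klk10 (72 and 285 reads) at 1.90 and Klk14 (3 and 12 reads) at 1.63. The sheddase gene Adam17, whose product releases cell-surface proteins, had 1978 and 2956 reads, a log2 fold difference of 0.51. Klk5, Klk7 and Klk14 fall outside the naming rule and were named after their values were seen. So were Sprr1b, Krt6a, Krt6b, the fibroblast markers Dcn, Pdgfra and Thy1, the macrophage markers and the regulators Snai1, Zeb1, Zeb2 and Twist1.

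Among 11 transcription factors of epithelial identity, 1 was lower by at least 2-fold, 0 were higher, and the median log2 difference was -0.22. Over all genes compared 7.82% were lower, so 1 of 11 is near the background share. The lower gene was Grhl1, a Grainyhead factor known to act on the Dsg1 promoter in skin, with 2277 reads in ctrl against 852 in M2, a log2 fold difference of -1.49 (-1.60 to -1.37). A link between Grhl1 and the Dsg1 copies in these colonies was not tested. Ovol1 (878 and 635 reads) stood at -0.54, Tfap2c (5191 and 3788 reads) at -0.52 and Zfp750 (1471 and 1115 reads), a regulator of epidermal differentiation, at -0.47. Of 5 compared regulators of epithelial to mesenchymal transition (EMT), which repress junction genes, 0 were lower and 2 were higher, Snai1 (27 and 89 reads) at 1.62 and Zeb2 (83 and 185 reads) at 1.08, with a median log2 difference of 0.31. With the whole counting interval beyond 2-fold, 1 was higher. Zeb1 (49 and 29 reads) stood at -0.81 and Twist1 (16 and 14 reads) at -0.25. Snai2, expressed by basal cells, had 742 and 967 reads, a log2 fold difference of 0.31.

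**Figure D5:**
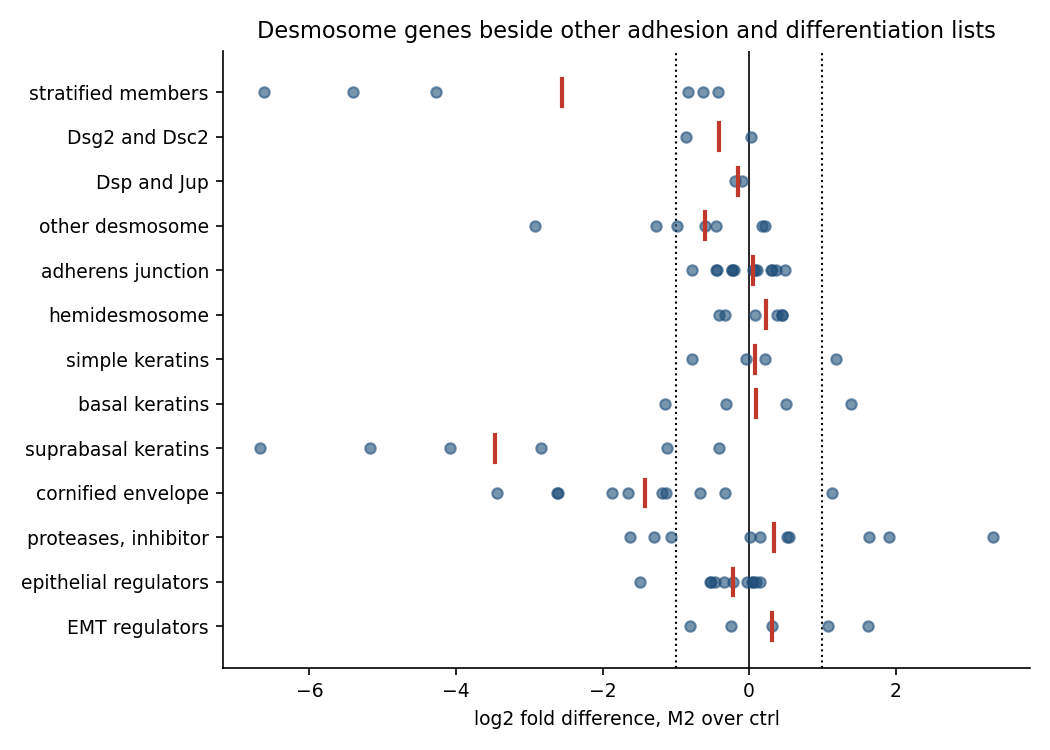
Each point is a compared gene, placed by its log2 fold difference (M2 over ctrl, x axis) in its list; red ticks are the list medians and dotted lines mark 2-fold. The points below -4 belong to the stratified desmosome members (Dsg1a, Dsg1b, Dsc1) and the suprabasal keratins (Krt4, Krt1, Krt10), and the 13 adherens junction and 6 hemidesmosome genes lie between the dotted lines.

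Markers of other cell types were checked beside these values. Of 12 macrophage markers, Adgre1, Tyrobp, Fcer1g and Ptprc had 0 reads in both libraries, which allows up to 0.109 CPM in ctrl and 0.104 CPM in M2. The list summed to 281 reads in ctrl against 344 in M2, and 3 of 5 compared markers were higher: Itgam (3 and 9 reads), Aif1 (3 and 40 reads) and Cd163 (2 and 30 reads). Most reads of the list came from the other compared markers, Cd68 (170 and 165 reads) and Csf1r (94 and 92 reads), at log2 fold differences of -0.11 and -0.10. Ctss (5 and 2 reads), Lyz2 (3 and 1 reads) and Mrc1 (1 and 5 reads) had too few reads to be compared. The fibroblast list summed to 339 CPM in ctrl and 143 CPM in M2, with 4 of 8 lower and 1 higher. Its largest differences were in the collagen gene Col3a1 (1612 and 276 reads), at a log2 fold difference of -2.61, and in Pdgfrb (259 and 55 reads), at -2.28. The higher gene was Dcn (51 and 157 reads) at 1.53. Pdgfra (607 and 822 reads) stood at 0.37 and Thy1 (257 and 253 reads) at -0.09. The luminal list summed to 4310 CPM in ctrl and 3508 CPM in M2, with the hormone receptor genes Pgr (3195 and 575 reads) at -2.54 and Esr1 (1028 and 281 reads) at -1.94. Of its 13 genes, 6 were lower by at least 2-fold. The 7 others differed by less, among them Krt8 at 0.21, Krt18 at -0.05 and Krt19 at -0.78. The part of these cells in the desmosome gene differences was not tested.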

How the data were processed

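RNA of 1 ctrl and 1 M2 library was sequenced, with groups taken from the sample titles. The values deposited by the authors are unnormalised counts of reads for each gene, beside its length and coordinates. The labels give a Qiagen kit for the RNA and a SMARTER kit for the libraries, whereas the methods of the study name RNAiso Plus. A microarray is named in the series text, but the values are sequencing counts. The submitters' processing notes name the builds GRCm38 and mm10. The aligner, counter, annotation, strand setting and read filters are not given in the sources used here.

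Genes with at least 10 reads over both libraries were kept (19233 of 49492). Library sizes were scaled with TMM in edgeR 4.0.16 under R 4.3.3 (factors 1.02 and 0.980). The log2 fold difference is that of reads plus a pseudocount of 1 per scaled library size, with a 95% Clopper-Pearson interval of the share of reads. A gene was counted at 2-fold or more. Levels are RPKM over the deposited length and the scaled library size with exact Poisson intervals, and a count of 0 allows 3 reads. No test was made, since each group holds 1 library and the contrast chose the members. The functions were tested on simulated data. Other scalings used DESeq2 1.42.0 size factors, total reads and the upper quartile. Python 3.11.15 and SciPy 1.17.1 were used.

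The members and the 18 gene lists were chosen with earlier results of these data known. The text names all members, the other desmosome genes, the cluster's neighbours, the defining keratins, and of each list up to 4 genes with the largest difference among those with at least 200 reads in 1 library. Any other gene was chosen after its values were seen. Protein identity between paralogs was planned and was replaced by exact sharing of windows of 50 bases between GENCODE M21 transcripts. Transcript length and the summed Dsg1 copies were alternatives added after seeing the data. Promoter sequences are from RefSeq.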

Additional observations from a re-analysis of the deposited data

How the results depend on the processing

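No paired analysis was possible because there is 1 ctrl and 1 M2 library, and for the same reason no library could be left out and no dispersion estimated. Scaling, pseudocounts (0.5 and 3) and the 4-fold threshold left 3 of the 10 desmosome genes lower and 0 higher. Under a minimum of 1 CPM in each library the count of lower members was 0, because Dsg1a, Dsg1b and Dsc1 then fail the filter. For all genes, lower and higher counts were 583 and 797 under that filter, 4001 and 3174 with at least 1 read, 494 and 616 at 4-fold, and 679 and 938 with the whole interval beyond 2-fold. Summing the Dsg1 copies moved the log2 value of Dsg1a from -6.62 to -5.57. Shares moved with the length used. With reads not divided by length, Dsg2 made up 44.6% (ctrl) and 61.9% (M2) of desmogleins, the Dsg1 copies 12.2% (ctrl), Dsc2 64.1% (ctrl) and Dsc1 7.39% (ctrl) of desmocollins, and Pkp1 91.1% and 83.4% of plakophilins. With GENCODE transcript lengths these were 45.4% and 63.5% (Dsg2), 13.8% (Dsg1 copies, ctrl), 65.9% and 65.5% (Dsc2), 8.62% (Dsc1, ctrl), and 86.4% and 75.8% (Pkp1). Summed levels scaled by total reads differed by log2 -0.67 (lower-layer), -0.29 (broad), -0.68 (all cadherins) and -0.55 (plaque). Not divided by length they were -0.16 (broad), -0.51 (all cadherins) and -0.39 (plaque), and with GENCODE lengths -0.54 (all cadherins) and -0.46 (plaque). Among the 17 desmosome genes with enough reads, the direction of Dsg2 turned, to -0.03 with total reads, and the others kept theirs. For all genes, more were lower than higher with at least 1 read, the opposite of the other settings. The medians of the lists were not recomputed. Total reads lower each log2 value by 0.059, more than the adherens junction median of 0.05. Depth limits the M2 values of Dsg1a, Dsg1b and Dsc1, which rest on 14, 18 and 6 reads.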
